A study of Mus musculus with 6 samples.

Results

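The genes described here are 9 classical cadherins (Cdh1, Cdh2, Cdh3, Cdh4, Cdh6, Cdh7, Cdh8, Cdh10 and Cdh11) and the epithelial adhesion gene Epcam. They were taken by gene symbol, and all 10 were found among the 54532 genes of the deposited table. RNA came from P19, a mouse embryonal carcinoma line that forms neural cells in retinoic acid. Of the 6 libraries, 3 came from cells transfected with Baf45d siRNA and 3 from cells transfected with negative control (NC) siRNA. Both groups had all-trans retinoic acid for 5 days. Per the labels, replicates are biological and numbered 1 to 3. Transfection was transient, in 1 cell line and with 1 control siRNA. No library from before retinoic acid was analysed here, so the values describe day 5 and not a change over time. The series asks what BAF45D, the Dpf2 product and part of the chromatin-remodelling BAF complex, does in early neural differentiation.

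Classical cadherins are calcium-dependent adhesion proteins that bind cadherins on the neighbouring cell and, through catenins, the actin cytoskeleton inside. Type I cadherins include E-cadherin (Cdh1), N-cadherin (Cdh2), P-cadherin (Cdh3) and R-cadherin (Cdh4), and type II cadherins include Cdh6, Cdh7, Cdh8, Cdh10 and Cdh11. When the neural plate forms, cells lose E-cadherin and gain N-cadherin, a change known as the E to N switch. Transcription factors of the Snail, ZEB and Twist families repress Cdh1 during such changes, and Snail and ZEB proteins bind E-box sequences to do so.

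Library totals ran from 17127876 to 18499169 counts with Baf45d siRNA and from 17767104 to 21224822 with NC siRNA. Dpf2, the siRNA target, stood at 148.2, 141.4 and 147.2 CPM (counts scaled to library size) with Baf45d siRNA and at 156.1, 154.1 and 157.5 CPM with NC siRNA. The groups were apart but close (log2 fold change -0.10, SE 0.07, edgeR adjusted p = 0.996), so this transcript gives little check of the labels. The difference of -6.59% had an unadjusted 95% interval from -16.1% to 3.98%, so knockdown of the target was not shown at the RNA level. No protein values were analysed here. The comparisons below are therefore between siRNA groups and not between known levels of BAF45D. Summed marker lists showed neural and mesenchymal RNA in every library. The 5 neuron markers summed to 643.1 to 1034.7 CPM with Baf45d siRNA and to 708.8 to 786.2 CPM with NC siRNA, and the 5 neural progenitor markers to 390.1 to 466.2 and 385.5 to 469.5 CPM in the same order. The 6 mesenchyme markers summed to 1091 to 1316 CPM with Baf45d siRNA and to 1107 to 1589 CPM with NC siRNA. The 5 pluripotency markers summed to at most 8.27 CPM with Baf45d siRNA and 8.62 CPM with NC siRNA, and Zfp42 had 0 counts in all 6 libraries.

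Promoter sequence is shown for 2 genes because E-boxes are the elements that the repressors measured below bind. RefSeq promoter windows (GRCm38.p6) were at hand for 5 of the 10 genes, Cdh6, Cdh7, Cdh8, Cdh10 and Epcam. Each line gives the 250 bases before the annotated start, 5′ to 3′ on the strand of the gene, with matches to CAGGTG or its reverse complement CACCTG in capitals. Epcam lies at chr17:87635729-87635978 (plus strand) and Cdh6 at chr15:13173676-13173925 (minus strand).
Epcam: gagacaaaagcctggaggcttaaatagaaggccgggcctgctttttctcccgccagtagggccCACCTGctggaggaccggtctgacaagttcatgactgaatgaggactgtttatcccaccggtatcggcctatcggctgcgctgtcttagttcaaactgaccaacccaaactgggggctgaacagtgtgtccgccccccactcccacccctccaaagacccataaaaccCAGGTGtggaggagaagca
Cdh6: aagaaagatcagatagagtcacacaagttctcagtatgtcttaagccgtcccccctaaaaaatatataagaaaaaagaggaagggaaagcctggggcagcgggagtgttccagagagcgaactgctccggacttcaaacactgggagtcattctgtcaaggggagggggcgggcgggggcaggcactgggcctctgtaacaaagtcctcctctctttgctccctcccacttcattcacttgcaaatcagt
The Epcam window held 2 matches, which began 187 and 19 bases before the start. The Cdh6 window held none, as did those of Cdh8 and Cdh10, and 2 of the 3 windows of Cdh7 held the motif. Only this sequence was searched, so a window without a match can still hold other forms of E-box. Of all 32851 windows of this length, 17.2% held at least 1 match and 2.06% at least 2. A match is a stretch of letters and not evidence that a factor binds there.

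N-cadherin was the most abundant of the 10 genes on day 5 and E-cadherin was among the lowest. Levels of different genes are compared as FPKM, which divides counts by gene length and depth. Cdh2 (chromosome 18, 16588877 to 16809246, minus strand, GRCm38) had 48.6, 55.2 and 45.5 FPKM with Baf45d siRNA and 42.4, 40.9 and 45.2 FPKM with NC siRNA. Cdh1 (chromosome 8, 106603351 to 106670246, plus strand) had 0.530, 0.542 and 1.28 FPKM with Baf45d siRNA and 0.426, 0.500 and 1.66 FPKM with NC siRNA. Every library therefore held far more N-cadherin than E-cadherin transcript per length. Cdh1 ranked 10th of the 10 genes in libraries 1 and 2 of both groups, 8th in Baf45d library 3 and 7th in NC library 3. In bulk RNA, fewer cells of a type and less RNA per cell cannot be told apart.

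The ratio of Cdh2 to Cdh1 FPKM was 91.8, 101.7 and 35.5 in Baf45d libraries 1 to 3 and 99.5, 81.8 and 27.3 in NC libraries 1 to 3. The groups overlapped, and the lowest ratio of each group was in its library numbered 3. On the log2 scale the ratio averaged 6.11 ± 0.84 with Baf45d siRNA and 5.92 ± 1.01 with NC siRNA (SD, n = 3 each), a difference of 0.19. That difference is smaller than either SD. It turned to -0.38 without NC replicate 3, and was also below 0 without Baf45d replicate 1 (-0.01) and without Baf45d replicate 2 (-0.09). It stood at 0.67 without Baf45d replicate 3, 0.55 without NC replicate 1 and 0.41 without NC replicate 2.

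**Figure D1:**
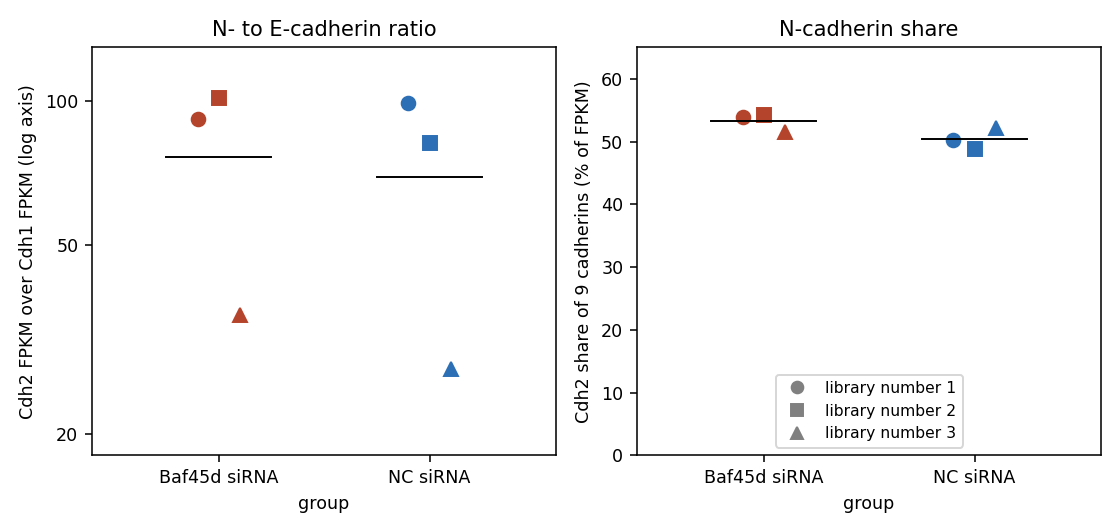
Left, Cdh2 FPKM divided by Cdh1 FPKM in each library (log axis); right, the share of Cdh2 in the summed FPKM of the 9 cadherins (%). Points are libraries with shapes for their number and bars are group means; the ratio in each library numbered 3 (35.5 and 27.3) lay below that in the other 4 (81.8 to 101.7), while the share stayed between 48.8% and 54.2%.

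N-cadherin made up 53.8%, 54.2% and 51.6% of the summed FPKM of the 9 cadherins with Baf45d siRNA and 50.3%, 48.8% and 52.1% with NC siRNA. E-cadherin made up at most 1.45% with Baf45d siRNA and 1.91% with NC siRNA. The sum itself was 90.3, 101.7 and 88.2 FPKM with Baf45d siRNA and 84.4, 83.8 and 86.7 FPKM with NC siRNA. Most of this sum came from Cdh2 and Cdh11 together, with 71.9% to 72.9% under Baf45d siRNA and 72.5% to 73.5% under NC siRNA.

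By mean FPKM over 6 libraries the order was Cdh2 (46.3), Cdh11 (18.6), Cdh8 (7.94), Cdh6 (7.66), Cdh3 (4.75), Epcam (2.46), Cdh10 (1.76), Cdh4 (0.836), Cdh1 (0.823) and Cdh7 (0.515). Neighbours whose ranges over the libraries overlapped were Cdh8 and Cdh6, Epcam and Cdh10, Cdh4 and Cdh1, and Cdh1 and Cdh7. Epcam lay above Cdh10 within each of the 6 libraries, whereas Cdh8 lay above Cdh6 in 3 of 6, Cdh4 above Cdh1 in 4 of 6 and Cdh1 above Cdh7 in 2 of 6. Cdh1 varied most of the 10, by 3.88 times between its highest and lowest library. Cdh11 varied least, by 1.27 times.

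**Figure D2:**
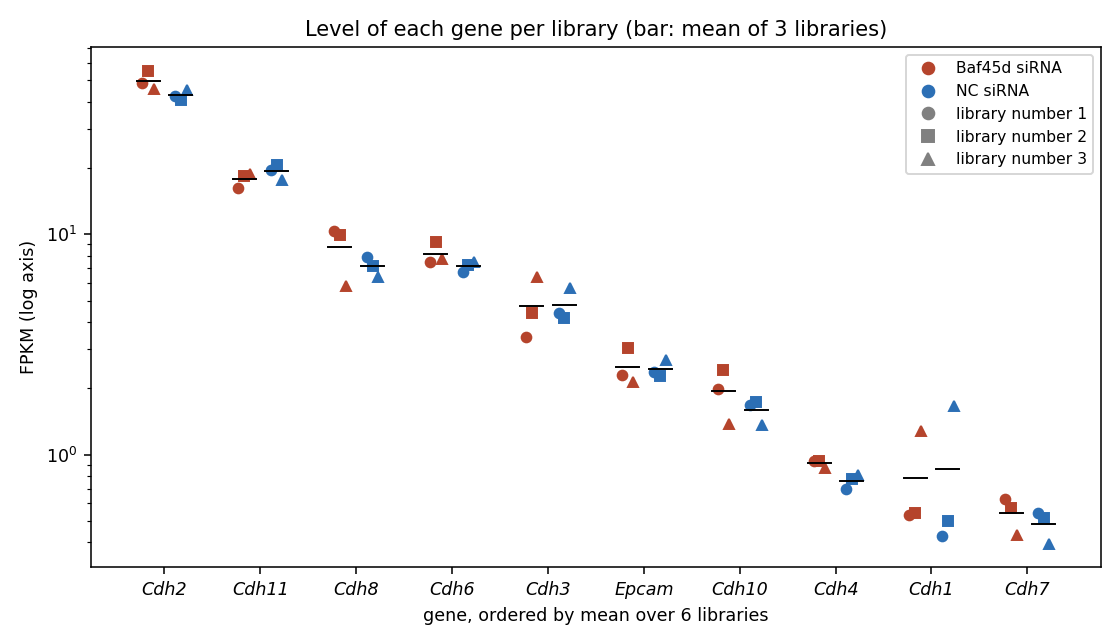
FPKM of the 10 genes (log axis) in each library, ordered by their mean over 6 libraries. Points are libraries with shapes for their number, and bars are means of 3 libraries; Cdh2 stands at 40.9 to 55.2 FPKM in every library, and the 2 high points of Cdh1 (1.28 and 1.66 FPKM) are the libraries numbered 3.

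The siRNA comparison called none of the 10 genes (edgeR quasi-likelihood test of 16078 genes, adjusted p threshold 0.05). Because knockdown of Dpf2 was not shown, the effect of a loss of BAF45D on these genes was not tested. Over the whole table the share called was 0%. All 10 genes passed the filter on low counts, and their adjusted p ran from 0.996 to 0.999. In the fit that blocked on replicate number, 1 gene of the table was called, and it was none of the 10. At an unadjusted p under 0.05 that fit held 4 of the 10, all higher with Baf45d siRNA, namely Cdh2, Cdh6, Cdh8 and Cdh10 (edgeR adjusted p from 0.541 to 0.640). Of all tested genes 7.75% were under 0.05 in it, 3.27% with the higher level under Baf45d siRNA. In 3 of 3 pairs of same-numbered libraries 5 of the 10 were higher with Baf45d siRNA, against 13.8% of tested genes. These were Cdh2, Cdh4, Cdh6, Cdh7 and Cdh10, although in pair 3 the log2 differences of Cdh2 and Cdh10 were 0.0052 and 0.0060. The labels do not say that the numbers pair the samples, so the pairs and the block rest on a pairing that is not established. Without the block, 1 of the 10, Cdh2, had an unadjusted p under 0.05, where 2.85% of all tested genes did, 1.21% with a higher and 1.64% with a lower level under Baf45d siRNA. Log2 fold changes were positive for 7 of 10, against 51.9% of all tested genes, with a median of 0.17 against 0.01. The groups did not overlap for 2 of 10, Cdh2 and Cdh4, where 8.04% of tested genes did not. In both the Baf45d libraries were the higher ones, as in 3.74% of tested genes. Neither DESeq2 (0 genes, 394 at an unadjusted p under 0.05) nor limma-voom (0 genes, 481 at that level) made a call.

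**Figure D3:**
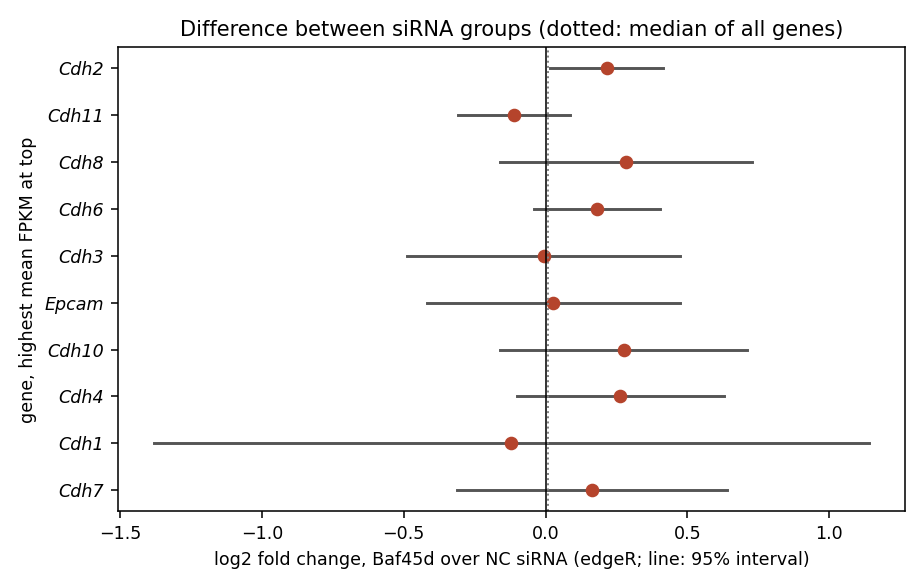
Log2 fold change of each gene, Baf45d over NC siRNA, from edgeR, with its unadjusted 95% interval (line) and the median of all tested genes (dotted). The interval of Cdh2 runs from 0.02 to 0.42, and the intervals of the other 9 genes include 0, with the widest for Cdh1.

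Among type I cadherins, Cdh2 stood at 394.8, 447.6 and 367.6 CPM with Baf45d siRNA and at 343.8, 331.8 and 366.3 CPM with NC siRNA. All Baf45d libraries lay above all NC libraries, though Baf45d replicate 3 and NC replicate 3 were nearly level. Means were 403.3 ± 40.7 CPM with Baf45d siRNA and 347.3 ± 17.5 CPM with NC siRNA (SD, n = 3 each). The difference of 16.1% had an unadjusted 95% interval from 1.15% to 33.4%. An exact two-sided permutation over libraries returned p = 0.1, below which 3 against 3 cannot go. In edgeR the unadjusted p was 0.0365 and the adjusted p 0.996. The log2 fold change was 0.22 (SE 0.09), and it was 0.14 without Baf45d replicate 2.

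Cdh4, which encodes R-cadherin of the retina and brain, stood at 6.81, 6.83 and 6.31 CPM with Baf45d siRNA and at 5.09, 5.63 and 5.88 CPM with NC siRNA. The groups did not overlap. The log2 fold change of 0.26 (SE 0.16) had an edgeR adjusted p of 0.996. Cdh3, which encodes P-cadherin of placenta and surface epithelia, stood at 15.1, 19.4 and 28.1 CPM with Baf45d siRNA and at 19.4, 18.4 and 25.2 CPM with NC siRNA. Here the groups overlapped, and the library numbered 3 was the highest of each. The log2 fold change was -0.01 (SE 0.22), with a 95% interval from -0.49 to 0.48.

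Cdh1 rested on 43, 42 and 108 counts with Baf45d siRNA and on 35, 49 and 136 counts with NC siRNA. In CPM this was 2.44, 2.49 and 5.88 with Baf45d siRNA and 1.96, 2.30 and 7.61 with NC siRNA. The spread within each group was far larger than the difference between the groups. The log2 fold change of -0.12 (SE 0.55) had a 95% interval from -1.38 to 1.14, or 0.384 to 2.21 times the NC level. These libraries are therefore compatible with any difference within that range. The sign of the log2 fold change was also unsteady, since it was 0.76 without NC replicate 3 and 0.21 without both libraries numbered 3.

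Among type II cadherins, Cdh11 (chromosome 8, 102632095 to 102785642, minus strand), the cadherin of mesenchyme and bone-forming cells, had the highest level. It stood at 146.1, 165.5 and 168.0 CPM with Baf45d siRNA and at 175.0, 185.2 and 158.0 CPM with NC siRNA. The groups overlapped, with a log2 fold change of -0.11 (SE 0.09, 95% interval -0.31 to 0.09). Cdh6, expressed in the embryonic neural tube and kidney, stood at 68.0, 83.7 and 69.8 CPM with Baf45d siRNA and at 61.0, 66.0 and 68.2 CPM with NC siRNA. Its groups overlapped at 1 pair of libraries, since Baf45d replicate 1 lay just below NC replicate 3. Its log2 fold change was 0.18 (SE 0.10).

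Cdh8, a cadherin of developing brain circuits, stood at 80.9, 77.5 and 45.1 CPM with Baf45d siRNA and at 61.6, 55.9 and 49.6 CPM with NC siRNA. Baf45d libraries 1 and 2 lay above all NC libraries and Baf45d library 3 below all of them. Its log2 fold change of 0.28 (SE 0.20) was the largest of the 10. Without Baf45d replicate 3 it was 0.51 (edgeR adjusted p = 0.0679), and over all 16 alternatives the adjusted p of Cdh8 ran from 0.0679 to 1.00. Without both libraries numbered 3 it was 0.44 (adjusted p = 0.143).

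Cdh10 and Cdh7, which are also cadherins of neural tissue, had lower levels. Cdh10 stood at 20.1, 24.6 and 13.9 CPM with Baf45d siRNA and at 17.02, 17.5 and 13.8 CPM with NC siRNA (log2 fold change 0.28, SE 0.20). Cdh7 stood at 6.35, 5.76 and 4.35 CPM with Baf45d siRNA and at 5.49, 5.21 and 3.97 CPM with NC siRNA (log2 fold change 0.16, SE 0.21). For both genes the groups overlapped and the library numbered 3 was the lowest of its group, with Baf45d library 3 just above NC library 3.

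Epcam, an adhesion protein of epithelia and pluripotent cells that is not a cadherin, stood at 4.71, 6.24 and 4.35 CPM with Baf45d siRNA and at 4.87, 4.65 and 5.48 CPM with NC siRNA. The groups overlapped, with a log2 fold change of 0.03 (SE 0.20, 95% interval -0.42 to 0.48). Epcam did not share the arrangement of Cdh1, because its library numbered 3 was the lowest with Baf45d siRNA and the highest with NC siRNA.

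The largest differences among the 6 libraries followed the library number and not the siRNA. This contrast was chosen after the values were seen, and it gets no test. Cdh1 averaged 6.74 CPM in both libraries numbered 3 and 2.30 CPM in the other 4, or 2.93 times as much. On the log2 scale the difference was 1.503, and 0.230% of all tested genes had a difference at least as far from 0. Cdh3, whose gene ends 46053 bases before the start of Cdh1 on the same strand, averaged 26.6 CPM in the libraries numbered 3 and 18.1 CPM in the other 4, a log2 difference of 0.56 that 7.29% of tested genes reached.

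Cdh8, Cdh10 and Cdh7 went the other way. Cdh8 averaged 47.4 CPM in the libraries numbered 3 and 69.0 CPM in the other 4, a log2 difference of -0.53. Cdh10 and Cdh7 had log2 differences of -0.50 and -0.44, which 9.58% and 12.2% of tested genes reached in either direction. Cdh2, Cdh4, Cdh6, Cdh11 and Epcam had differences from -0.05 to 0.01. The library numbered 3 was the highest of its group in both groups for 2 of the 10 genes, against 21.2% of all tested genes, and the lowest in both for 3 of 10, against 20.6%. The 10 genes are therefore not set apart by how many took part, and only the size for Cdh1 lay near the end of the range of all genes.

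**Figure D4:**
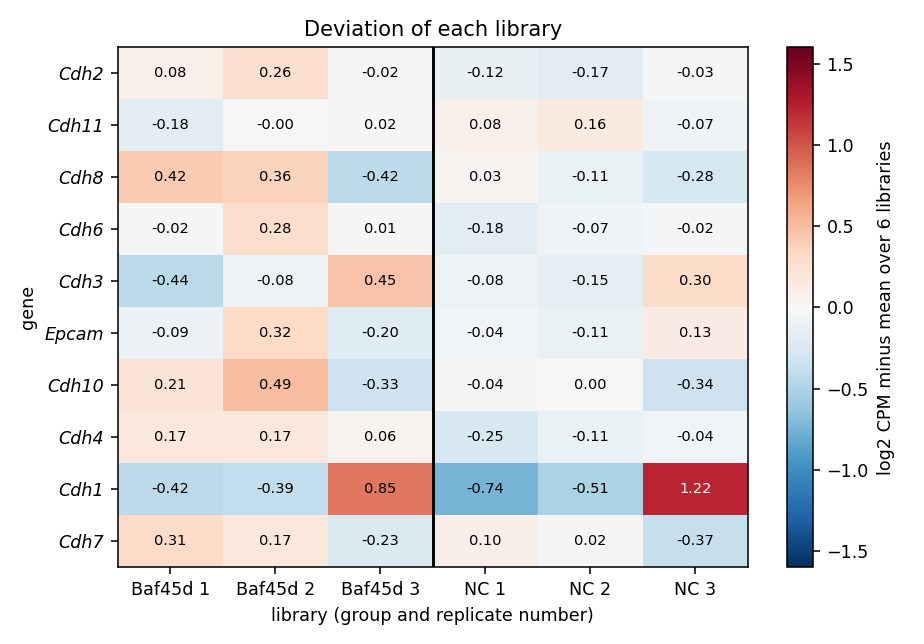
Log2 CPM of each gene in each library minus its mean over 6 libraries; colour and printed number give the same value, Baf45d libraries at left and NC libraries at right. In the columns Baf45d 3 and NC 3, Cdh1 (0.85 and 1.22) and Cdh3 (0.45 and 0.30) are above their means, and Cdh8 (-0.42 and -0.28), Cdh10 (-0.33 and -0.34) and Cdh7 (-0.23 and -0.37) below.

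The sums of some other cell type markers went with the library number as well, but not every gene did. The 5 surface epithelium markers summed to 30.7, 41.6 and 75.1 CPM with Baf45d siRNA and to 39.4, 48.0 and 69.2 CPM with NC siRNA, highest in each library numbered 3. Most of this sum was the simple-epithelium keratins Krt8 and Krt18, while the basal epidermal markers Krt5 and Trp63 were at or near 0, with at most 6 and 4 counts in a library. The basal keratin Krt14 was present in every library, with 39 to 61 counts with Baf45d siRNA and 56 to 75 counts with NC siRNA, and did not follow the library number. The neuron markers summed to 1034.7, 928.9 and 643.1 CPM with Baf45d siRNA and to 786.2, 712.0 and 708.8 CPM with NC siRNA. This sum was lowest in each library numbered 3, but NC libraries 2 and 3 were nearly level. Of the 5 genes, 3 were lowest in the library numbered 3 of both groups, where 20.6% of all tested genes were. The mesenchyme sum was also lowest in each library numbered 3, at 1317, 1213 and 1091 CPM with Baf45d siRNA and 1589, 1589 and 1107 CPM with NC siRNA. Of the 6 mesenchyme genes, 3 were lowest there in both groups, where 20.6% of all tested genes were. The neural progenitor sum was instead highest in each library numbered 3. It was 407.3, 390.1 and 466.2 CPM with Baf45d siRNA and 418.7, 385.5 and 469.5 CPM with NC siRNA. Its 5 genes were split, with 2 highest and 2 lowest in the library numbered 3 of both groups. Between the siRNAs, all 5 neuron markers had a positive log2 fold change (median 0.24), as did 51.9% of all tested genes. A negative one was found for 5 of 6 mesenchyme markers (median -0.20). None passed the threshold. The neuron sums of Baf45d libraries 1 and 2 lay above all NC libraries, and that of Baf45d library 3 lay below all of them. The part of these cell types in the cadherin values was not tested.

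The remaining marker lists had lower sums than the neuron, neural progenitor and mesenchyme lists. Endoderm markers summed to 55.8 to 69.5 CPM with Baf45d siRNA and to 70.8 to 79.5 CPM with NC siRNA, nearly all of it Gata6 and Gata4, and Afp had 0 counts throughout. Gata6 averaged 9.99 ± 0.90 FPKM with Baf45d siRNA and 12.4 ± 0.93 FPKM with NC siRNA (edgeR adjusted p = 0.996). Its groups did not overlap, which was so for 8.04% of all tested genes. Endothelium markers summed to 31.9 to 37.4 CPM with Baf45d siRNA and to 36.1 to 43.0 CPM with NC siRNA. Neural crest markers summed to 16.1 to 21.3 CPM with Baf45d siRNA and to 16.1 to 18.4 CPM with NC siRNA. No gene of the 8 marker lists passed the threshold.

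By the smallest root mean square difference of log2 CPM deviations over the 6 libraries, the genes most like Cdh2 were Nucb2 (0.022), Ncapd3 (0.026) and Setbp1 (0.028). Those most like Cdh1 were Gas6 (0.25), Ctgf (0.25) and Thbs1 (0.27). Thbs1, which encodes thrombospondin 1, stood at 48.4, 51.4 and 147.2 CPM with Baf45d siRNA and at 62.8, 63.8 and 143.3 CPM with NC siRNA, so its high libraries were those numbered 3. The 3 genes were the closest among 11712 genes at a mean of at least 5 CPM, and closeness over 6 libraries says nothing of shared control.

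Other cadherins were mostly low, but Cdh24, at a mean of 5.25 FPKM over 6 libraries, lay above Cdh3 (4.75 FPKM). The sum of 9 cadherins behind the shares above leaves these other cadherins out. Of 9 further type I and II cadherins, 6 were tested, 4 with a positive and 2 with a negative log2 fold change (median 0.08), and none passed. Cdh24 averaged 4.80 ± 0.56 FPKM with Baf45d siRNA and 5.69 ± 0.29 FPKM with NC siRNA, Cdh22 4.17 ± 1.45 and 3.77 ± 0.35 FPKM, and Cdh18 2.57 ± 0.15 and 2.34 ± 0.22 FPKM, in the same order (SD, n = 3 each). The endothelial cadherin gene Cdh5 had at most 16 counts in a library. Of 14 cadherins outside types I and II, 6 were tested, 5 with a positive sign (median 0.11), and none passed. The desmosomal cadherin Dsc2 averaged 2.67 ± 0.52 FPKM with Baf45d siRNA and 3.32 ± 0.21 FPKM with NC siRNA, and Cdh23, a cadherin of hair cell tip links, 0.609 ± 0.170 and 0.436 ± 0.063 FPKM. The desmoglein gene Dsg2 averaged 0.891 ± 0.398 FPKM with Baf45d siRNA and 0.861 ± 0.208 FPKM with NC siRNA.

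Catenins link cadherins to actin, and their levels ranged widely. Of 11 genes of this list, 10 were tested, 6 positive and 4 negative (median 0.02), and none passed. Ctnnb1, which encodes β-catenin, averaged 210.5 ± 8.06 FPKM with Baf45d siRNA and 219.6 ± 6.08 FPKM with NC siRNA, and Ctnna1, which encodes αE-catenin, 111.6 ± 9.79 and 109.5 ± 5.62 FPKM. Ctnna2, Ctnnd1 and Ctnnd2 were far lower, at means of 5.09, 4.80 and 2.01 FPKM over 6 libraries, and Ctnna3 had at most 10 counts in a library. Jup, which encodes plakoglobin, had the smallest p of the list, with 20.3 ± 2.38 FPKM with Baf45d siRNA and 23.6 ± 0.88 FPKM with NC siRNA (log2 fold change -0.22, SE 0.09, edgeR adjusted p = 0.996). Vcl, the actin-binding vinculin, was highest in each library numbered 3, at 31.2 FPKM in both against 20.5 to 24.3 FPKM in the other 4. Arvcf, of the p120-catenin family, averaged 16.5 ± 1.62 FPKM with Baf45d siRNA and 15.3 ± 1.51 FPKM with NC siRNA.

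Of 9 repressors of Cdh1, 8 were tested, 4 positive and 4 negative (median -0.01), and none passed. Tcf3 stood at 72.7 to 79.3 FPKM with Baf45d siRNA and at 76.4 to 78.6 FPKM with NC siRNA. Twist1 averaged 38.7 ± 3.67 FPKM with Baf45d siRNA and 37.9 ± 2.08 FPKM with NC siRNA, and Zeb1 16.3 ± 2.43 and 14.8 ± 0.58 FPKM. The Snail gene Snai1 averaged 1.45 ± 0.18 FPKM with Baf45d siRNA and 1.90 ± 0.41 FPKM with NC siRNA, and Twist2 0.379 ± 0.282 and 0.658 ± 0.146 FPKM. Of the 8 tested, 4 (Zeb1, Zeb2, Snai2 and Tcf4) were lowest in the library numbered 3 of both groups, where 20.6% of all tested genes were. Twist2 was highest there, at 1.84 times the mean of the other 4 libraries. Zeb1 stood at 15.9, 18.8 and 14.0 FPKM with Baf45d siRNA and at 14.9, 15.2 and 14.1 FPKM with NC siRNA.

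Epithelial genes ranged widely in level, with Krt18 near that of Cdh11. Of 10 epithelial regulators, 6 were tested, 3 in each direction (median -0.08), and none passed. Klf4, Klf5 and Grhl1 had the highest levels. Klf5 averaged 1.28 ± 0.42 FPKM with Baf45d siRNA and 1.48 ± 0.37 FPKM with NC siRNA, and Grhl1 0.952 ± 0.207 and 1.11 ± 0.152 FPKM. Klf4 averaged 1.69 ± 0.27 FPKM with Baf45d siRNA and 1.57 ± 0.46 FPKM with NC siRNA, and Elf3, an epithelial ETS factor, was at 0.143 ± 0.059 and 0.364 ± 0.128 FPKM (log2 fold change -1.31, SE 0.47, edgeR adjusted p = 0.996). Of 20 epithelial junction and surface genes, 16 were tested, 6 positive and 10 negative (median -0.03), and none passed. Krt18 stood at 12.9, 18.1 and 31.6 FPKM with Baf45d siRNA and at 14.6, 18.8 and 30.0 FPKM with NC siRNA. Krt8 was also highest in each library numbered 3, and Dsp, the desmosomal plaque gene, averaged 7.36 ± 0.89 FPKM with Baf45d siRNA and 7.16 ± 0.77 FPKM with NC siRNA. The smallest p of the list were those of Marveld2 (log2 fold change -0.63, SE 0.35) and Spint1 (-0.20, SE 0.19). In this list 7 of 16 genes were highest in the library numbered 3 of both groups, where 21.2% of all tested genes were. Another 3 of the 16 were lowest there, where 20.6% of all tested genes were.

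All 4 nectins, adhesion proteins that join cadherins at adherens junctions, were tested, 2 in each direction (median 0.02), and none passed. Nectin2 had the highest level, with 28.5 ± 5.46 FPKM with Baf45d siRNA and 30.9 ± 3.45 FPKM with NC siRNA, and Nectin1 and Nectin3 had log2 fold changes of 0.11 and 0.06. Of 13 genes for cadherin proteases and turnover, 11 were tested, 4 positive and 7 negative (median -0.05), and none passed. Adam10, which encodes a protease that sheds cadherin ectodomains, averaged 33.1 ± 1.54 FPKM with Baf45d siRNA and 34.3 ± 0.48 FPKM with NC siRNA, and Ncstn, which encodes nicastrin of gamma-secretase, 32.1 ± 1.69 and 30.9 ± 0.73 FPKM. Mmp9 was low, with 0.286 ± 0.101 FPKM with Baf45d siRNA and 0.489 ± 0.082 FPKM with NC siRNA.

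**Figure D5:**
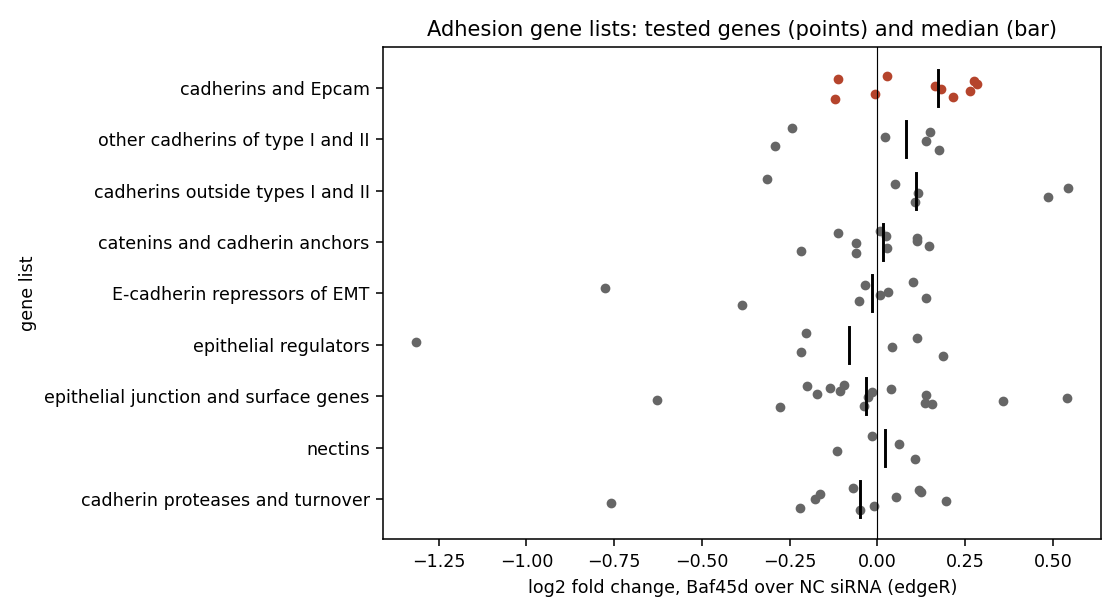
Log2 fold change, Baf45d over NC siRNA, of each tested gene (points) in the 10 genes described here (top) and 8 lists of adhesion genes, with the median of each (bar). Medians run from -0.08 for epithelial regulators to 0.17 for the 10 genes, and no point passed the threshold.

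In the authors' deposited table the log2 fold change of Cdh2 was 0.216 (p = 0.0376, adjusted p = 1.00), and none of the other 9 genes had a p under 0.05 there. Cdh2 was the one gene of the 10 in the authors' deposited table of protein pairs, where it was in 12 of 455 pairs. The authors' deposited table scored it at 943 with Smad7, 893 with Ednrb and 857 with Mmp2, and lowest, at 444, with Ndrg1. In the authors' deposited tables of pathway terms Cdh2 was counted in 11 terms, none at an adjusted p under 0.05. For the Reactome term on adherens junction interactions it was the one gene counted in a term of 33. These pairs and terms were drawn from the authors' genes in the same libraries, so they are no separate support for Cdh2.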

How the data were processed

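The authors deposited 1 table of 54532 Ensembl genes with raw counts per library, per the file headers. In the deposited FPKM, depth followed DESeq2 size factors and not total counts, as tested on 12173 genes. The authors' normalized group means (a signal), log2 fold changes and p-values came with it; DESeq2 1.16.1 is named in the submitters' processing notes. The authors also deposited term tables (p-values and numbers of genes) and a score per protein pair. No aligner, counter or strand setting is given in the sources used here, and Cdh8 shares 23 exon bases with the antisense gene Gm15679 (1 count in all). The notes name mm9, but 98.3% of 54409 genes, and 9 of these 10, had the GRCm38 coordinates of GENCODE M21 (Epcam did not, in full).

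Counts were tested with edgeR 4.0.16 in R 4.3.3 (filterByExpr defaults, TMM, robust quasi-likelihood F test on group, two-sided, Benjamini-Hochberg over 16078 genes, threshold 0.05). CPM use TMM factors. The test was also run on simulated counts, and the outcome is not reported here. Libraries of 1 group differed beyond sampling noise. Chi-square over its degrees of freedom was 15.9 to 23.0 between Baf45d libraries and 3.33 to 9.04 between NC libraries. Libraries numbered 3 deviated together (r = 0.35 over genes). Those numbered 1 and 2 had r = 0.17 and 0.13, close to the highest of the other pairs (-0.24 to 0.12). The labels do not say that the numbers pair the samples. The main test therefore used group only, and the block on number was an alternative taken from the data. The members and lists were chosen with earlier results of these data known. Named from each adhesion list were the 3 highest by FPKM, the 2 smallest p and any gene past the threshold; other names (Zeb2, Snai2, Tcf4, Krt14, Ctnna2, Ctnna3, Ctnnd1, Ctnnd2, Krt5, Trp63, Zfp42, Afp, Cdh5) were chosen after their values were seen, and some genes that the rule names are not reported here. Alternatives used other scalings, filters, DESeq2 1.42.0, limma 3.58.1, the block and each library left out.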

Additional observations from a re-analysis of the deposited data

How the results depend on the processing

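No gene of the 10 passed the threshold under any of 16 alternatives, and the lowest adjusted p was 0.0679 (Cdh8 without Baf45d replicate 3). Of 160 values, 149 kept their direction. Cdh2, Cdh4, Cdh6, Cdh7, Cdh8, Cdh10 and Cdh11 kept theirs throughout. The log2 fold change of Cdh1 was 0.054 in limma-voom, 0.0040 in limma on log2(FPKM + 0.1) and 0.21 without both libraries numbered 3 (chosen after seeing the data), and from -0.67 to 0.76 with 1 library left out. With 1 library left out Cdh3 ran from -0.28 to 0.18 and Epcam from -0.14 to 0.13. The cause was not tested. Over the whole table, 0 genes became 10 without a filter on low counts, 1 with the replicate block, 20 without both libraries numbered 3, and from 0 to 44 with 1 library left out, the 44 without Baf45d replicate 3. At an unadjusted p under 0.05, 459 genes became 1246 with the block, 1147 without a filter, 1715 without both libraries numbered 3, and from 195 to 2170 with 1 library left out. With the block the log2 fold change of Cdh2 was 0.21 (edgeR adjusted p = 0.541). The difference in the log2 ratio of Cdh2 to Cdh1 was 0.19 over all 6 libraries, and a block cannot change it where groups are balanced. That difference ran from -0.38 to 0.67 with 1 library left out, within 1 SD of the libraries. Depth limits the low genes, with at most 136 counts in a library for Cdh1, 120 for Cdh4, 112 for Cdh7 and 105 for Epcam.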
